A study of Mus musculus with 24 samples.

Results

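The comparison described here sets the ductus arteriosus (DA) of Prdm6-deficient embryos against the ascending aorta of control embryos, across all expressed genes, to show where the deficient DA was at the aortic level and where it was not. It used all 5 Prdm6-deficient DA libraries with counts and all 6 control aorta libraries, 11 of the 23 libraries measured by RNA-Seq. The remaining 12 libraries were 7 of control DA and 5 of Prdm6-deficient aorta, and they were fitted in the same model so that their values can stand beside each comparison. Of 54752 genes, 16463 had enough counts to be tested.

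All embryos were late-gestation mice on a C57/Black6 background. The deficient embryos carried Wnt1Cre;PRDM6f/f, in which a Wnt1-driven Cre recombinase deletes floxed Prdm6 in the neural crest lineage only, so cells of other origins in the vessel wall kept the gene. Of the 6 control aorta embryos, 5 were PRDM6wt/f, with 1 floxed allele and no Cre, and the embryo of replicate 3 was Wnt1Cre;PRDM6wt/wt. Among the control DA, replicate 2 came from that Cre-carrying embryo, replicate 3 was PRDM6wt/wt and the other 5 were PRDM6wt/f. The Prdm6-deficient aorta libraries carried the same alleles as the deficient DA. Prdm6-deficient DA replicates 1 and 2 were pools of 2 embryos each, and replicate 4 was not analysed here. By embryo number, 3 of the deficient DA libraries (replicates 1, 5 and 6) and 1 control aorta library (replicate 3) belonged to a first series of embryo numbers and the others to a second, so the groups and the series were partly aligned. Within the second series alone, 2 deficient DA against 5 control aorta libraries, 84 genes were called (61 higher and 23 lower), and the first series holds too few aorta libraries for a comparison of its own. No embryo gave both a deficient DA and a control aorta library. All 6 control aorta embryos also gave a control DA library, and 3 deficient DA libraries shared embryos with 4 of the deficient aorta, while the tests between these groups treat libraries as independent. Adjusted p-values from limma-voom with the embryo as a block, an alternative chosen after seeing the data, are given where they change a reported call between vessels that share embryos. Calls of the deficient DA against the control aorta that were lost in that fit are given together at the end. According to the labels, total RNA was 20 to 59 ng for DA samples and 94 to 210 ng for aorta samples, so RNA amount and vessel cannot be told apart.

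The DA is the fetal vessel that carries blood from the pulmonary artery to the aorta, and it must contract and close after birth. Its smooth muscle, like that of the ascending aorta, comes largely from the neural crest, but the DA is a muscular artery with an early, strong contractile program, whereas the ascending aorta is an elastic artery built of lamellae of elastin and collagen. Contractile genes in smooth muscle are switched on by serum response factor (Srf) with the cofactors myocardin and the MRTFs, which act at a DNA element named the CArG box, and Prdm6 is a smooth muscle-selective PR/SET domain protein.

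To show that element at genes of the contractile list, RefSeq promoters (GRCm38.p6) were searched from 250 bases before to 50 after each start site. The CArG box was searched by its strict consensus, CCWWWWWWGG with W for A or T, which reads the same on both strands. It was present in 535 of 32851 promoters (1.63%), or 488 of 27025 genes (1.81%), and in 4 of the 22 contractile genes with a promoter in the table. These were Ldb3, Myl6, Myl9 and Vcl, and the last 3, chosen after their values were seen, are shown because their 95% interval in the deficient DA lay within 0.5 log2 of the control aorta. Myh11, Tagln and Actg2 had no promoter there and were not searched. Variant or more distant elements were not sought, so a gene without a match here may still hold a CArG box. Each line gives the 250 bases before the start site, 5′ to 3′ on the gene's own strand, with the CArG box in capitals. The box began at position -50 for Myl6 (chr10:128493010-128493259, minus strand), at -161 for Myl9 (chr2:156775214-156775463, plus strand) and at -227 for Vcl (chr14:20929148-20929397, plus strand), counted from the start site.
Myl6: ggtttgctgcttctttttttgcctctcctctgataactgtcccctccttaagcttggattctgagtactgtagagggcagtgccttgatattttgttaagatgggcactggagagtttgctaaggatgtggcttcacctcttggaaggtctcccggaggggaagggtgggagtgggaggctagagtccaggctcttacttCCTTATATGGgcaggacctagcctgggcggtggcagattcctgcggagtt
Myl9: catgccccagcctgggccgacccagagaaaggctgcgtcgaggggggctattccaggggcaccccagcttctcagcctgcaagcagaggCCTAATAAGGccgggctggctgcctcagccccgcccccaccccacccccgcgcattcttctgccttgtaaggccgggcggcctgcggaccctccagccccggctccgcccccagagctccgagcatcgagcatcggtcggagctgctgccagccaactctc
Vcl: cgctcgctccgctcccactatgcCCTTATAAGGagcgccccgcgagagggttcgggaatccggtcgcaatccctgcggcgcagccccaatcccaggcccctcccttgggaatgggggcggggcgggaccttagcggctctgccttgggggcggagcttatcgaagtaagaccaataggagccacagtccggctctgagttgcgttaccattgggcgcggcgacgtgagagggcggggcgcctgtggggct
A match of letters is a description of the sequence and not evidence of binding. Myl6, the essential light chain of myosin, had a log2 difference from control aorta of 0.14 (95% interval -0.05 to 0.32). The regulatory light chain Myl9 had a difference of 0.20 (-0.02 to 0.42), and Vcl, the adhesion protein vinculin, of -0.23 (-0.47 to -0.00079).

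Total expected counts were 16945227 to 22318867 in the deficient DA and 19309945 to 22610547 in the control aorta, and 3 counts stood for 0.133 to 0.198 CPM (counts scaled to a library total of 1e+06) over the 23 libraries. All CPM values below are scaled by the TMM factors of the fit. In both groups the smooth muscle markers Acta2, Myh11, Tagln, Cnn1 and Myocd were present in every library. Prdm6-deficient DA replicate 1 and control aorta replicate 4 stood apart, with summed erythroid markers of 137751 and 136615 CPM against 24868 to 47096 CPM in the other 9 libraries. Without these 2 libraries 229 genes were called in place of 332.

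Prdm6 was measured at 78.1, 70.8, 77.7, 78.5 and 58.6 CPM in deficient DA replicates 1, 2, 5, 6 and 7, and at 95.6 to 135 CPM (median 109) in the control aorta. Every deficient DA library lay below every control aorta library, with a log2 difference of -0.64 ± 0.11 (SE) (adjusted p = 5.7e-04, edgeR quasi-likelihood test with Benjamini-Hochberg adjustment, as for every adjusted p here). Reads from the part of the gene outside the deletion, or from cells outside the neural crest lineage, were not separated. In bulk samples such as these, fewer cells of a type and less RNA per cell cannot be told apart. The call held in 23 of 24 alternative fits and was lost in the fit of the second embryo series alone.

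Over all 16463 tested genes, 231 were higher (1.4%) and 101 were lower (0.613%) in the deficient DA than in the control aorta, where a gene was called at an adjusted p under 0.01 and a log2 difference beyond 0.5, so that 2.02% of genes were called. Of the 332 called genes, 170 differed by more than 1 and 60 by more than 2 on the log2 scale. A gene that is not called is not thereby at the aortic level, so a second measure asked for genes whose whole 95% interval lay within 0.5 log2 of the control aorta. This held for 6387 genes (38.8%), and the remaining 9744 were neither called nor within the bound. In the fit of the control DA against the same aorta libraries, 521 genes were higher (3.16%), 361 were lower (2.19%) and 6549 were within the bound (39.8%). In the Prdm6-deficient aorta against the control aorta, 404 genes were called, 268 higher and 136 lower. Between the deficient DA and the deficient aorta, 44 genes were called, 25 higher and 19 lower in the deficient DA. With limma-voom and the embryo as a block, 70 genes were called between these 2 groups. All these comparisons share groups of libraries with one another, so their counts are given side by side only.

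The bound could be met only where the counts were high enough. Of 3484 genes with an average log2 CPM below 1, 0 lay within it, whereas of 5779 genes whose average log2 CPM was 5 or more, 4657 did (80.6%). The same share was 78.5% for the control DA. Between a log2 CPM of 1 and 3, 4 of 2599 genes lay within it, and between 3 and 5, 1726 of 4601 (37.5%).

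**Figure D1:**
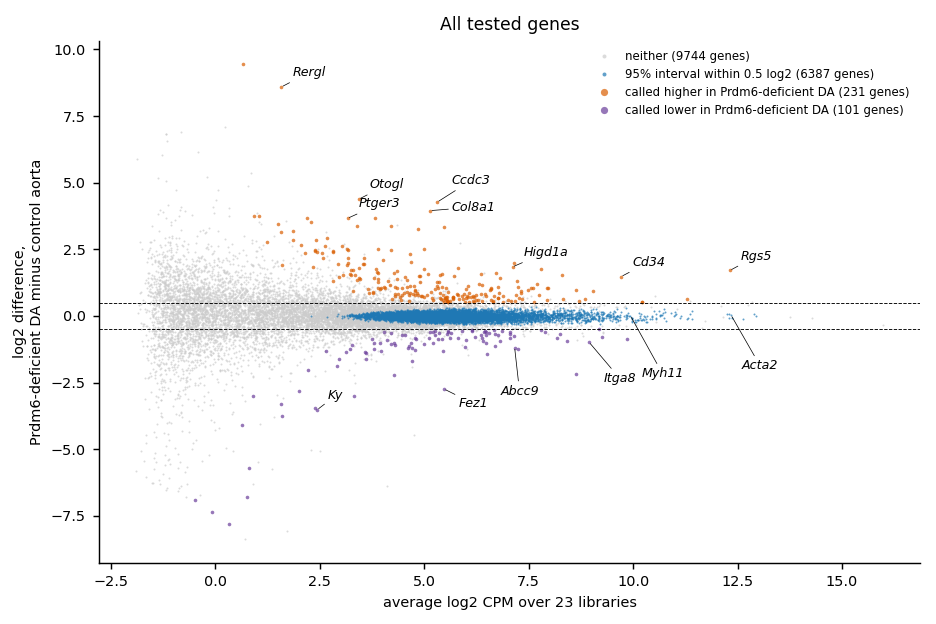
Log2 difference between Prdm6-deficient DA and control aorta (y axis) against average log2 CPM over 23 libraries (x axis), 1 point per tested gene, with dashed lines at 0.5 either way. The 231 genes called higher and the 101 called lower lie on both sides of a band of 6387 genes whose 95% interval stays within the lines.

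As a whole, each deficient DA library was nearer to the mean of the control aorta than to the mean of the control DA. The root mean square difference in log2 CPM over all tested genes was 1.09, 0.964, 0.963, 0.863 and 1.06 from the control aorta in replicates 1, 2, 5, 6 and 7, and 1.15, 1.07, 1.06, 0.981 and 1.14 from the control DA. The distance to the control DA was larger in 5 of 5 libraries, by 0.0916 ± 0.0230 (SD), and the exact sign-flip permutation test gave p = 0.0625 (2-sided), the smallest value that 5 libraries allow. Between the control aorta and the Prdm6-deficient aorta the order was not settled, with 2 of 5 libraries nearer to the control aorta (exact sign-flip p = 0.4375, 2-sided). Over genes whose average log2 CPM was 3 or more, all 5 were nearer to the Prdm6-deficient aorta, at a median of 0.424 against 0.493 (exact sign-flip permutation test, p = 0.0625, the smallest possible). The group means rest on 6, 7 and 5 libraries for control aorta, control DA and Prdm6-deficient aorta. All 5 deficient DA libraries were set against the same means, so their differences are not independent. The sign-flip p therefore leaves out the sampling of the libraries behind those means. For scale, deficient DA libraries lay 0.854 to 1.05 from the mean of the others in their own group. The same distance was 0.797 to 1.15 for control DA libraries and 0.624 to 0.731 for control aorta libraries. The part of this unequal spread in the distances above was not tested.

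**Figure D2:**
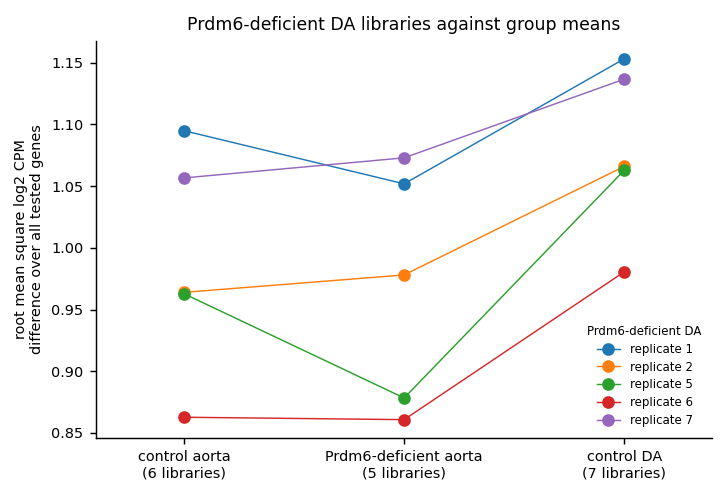
Root mean square log2 CPM difference (y axis, not starting at 0) between each Prdm6-deficient DA library, 1 line per library, and the means of 3 groups (x axis). All 5 lines are highest at the control DA, and the order of both aorta groups differs between libraries.

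More than any other outcome, the listed contractile genes of smooth muscle lay within the bound around the aortic level in the deficient DA. Of 26 tested members, 1 was higher, 1 was lower and 16 were within 0.5 log2 of the control aorta, with a median log2 difference of 0.02 against 0.0017 over all genes. In the second embryo series alone, 10 were within it. In the control DA, 16 of the same 26 were higher than in the aorta, 1 was lower and 2 were within the bound, with a median of 0.78. Of the 24 members whose average log2 CPM was 5 or more, 16 lay within the bound in the deficient DA, fewer than the 80.6% of all genes that abundant, so nothing particular to the list is read from that count. The list and its genes were known to move in these data when it was chosen.

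Myh11, the smooth muscle myosin heavy chain (chr16:14194535-14291372, mm10), was at 576, 384, 677, 594 and 461 CPM in deficient DA replicates 1, 2, 5, 6 and 7 and at 325 to 773 CPM (median 504) in the control aorta. The deficient DA values all lay inside the aortic range, with a log2 difference of 0.01 ± 0.20 (SE; interval -0.40 to 0.41), and it stayed within the bound in 17 of 24 alternative fits. In the control DA, Myh11 was at 1415 to 2870.2 CPM (median 1902), and no deficient DA library reached its lowest value. Acta2, smooth muscle alpha-actin, was at 4890.2, 4415, 5149, 4733 and 4496 CPM in the deficient DA and 3634 to 5735 CPM (median 4614) in the aorta, a difference of 0.03 (interval -0.21 to 0.27). Its control DA values, 4915 to 8650.4 CPM (median 6604), ran above both but overlapped them.

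Tagln, the actin-binding protein SM22, was at 4518, 3970.4, 4806, 4341 and 3969 CPM against 3535 to 4504 CPM (median 4141) in the aorta (interval -0.15 to 0.31). Cnn1, calponin, was at 502, 411, 464, 471 and 458 CPM against 402 to 562 CPM (median 485) (interval -0.36 to 0.19), while the control DA held 979.8 to 1953 CPM (median 1421). For both genes the deficient DA lay inside or beside the aortic range and below every control DA library. Actg2, the gamma-actin of visceral smooth muscle, was at 262, 241, 283, 279 and 233 CPM against 152 to 311 CPM (median 228) in the aorta and 964 to 1959 CPM (median 1284) in the control DA, but its interval of -0.19 to 0.57 passed the bound. Acta2 and Actg2 share near-identical sequence that the counting could divide between them.

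Mylk, the myosin light chain kinase, was at 285, 222, 379, 284 and 222 CPM against 168 to 263 CPM (median 186), a log2 difference of 0.49 ± 0.15 that was neither called (adjusted p = 0.064) nor within the bound. The intermediate filament gene Des, named here after its values were seen, was at 21, 35.7, 14.7, 17.6 and 53 CPM against 21.3 to 54.9 CPM (median 30.5) in the aorta and 265 to 646 CPM (median 399) in the control DA. Its interval of -0.79 to 0.40 was too wide for the bound, although every deficient library was far below every control DA library.

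Both called members left the aortic level in opposite directions. Itga8, the integrin alpha-8 chain, was at 399, 374, 419, 351 and 381 CPM in the deficient DA and 608 to 923 CPM (median 775) in the aorta, with no overlap and a log2 difference of -0.99 ± 0.15 (adjusted p = 7.4e-05). The control DA, at 337 to 601 CPM (median 421), was also below the aorta, and its own difference was -0.79 (adjusted p = 9.2e-05). Itga8 was not called different between the deficient DA and the deficient aorta (0.12, adjusted p = 0.88). Pdlim3, a PDZ and LIM protein of the actin cytoskeleton, was at 523, 486, 494, 517 and 576 CPM against 211 to 302 CPM (median 282), again without overlap, 0.97 ± 0.12 higher (adjusted p = 4.3e-06), beside a control DA difference of 0.78. Each call held in 24 of 24 alternative fits.

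**Figure D3:**
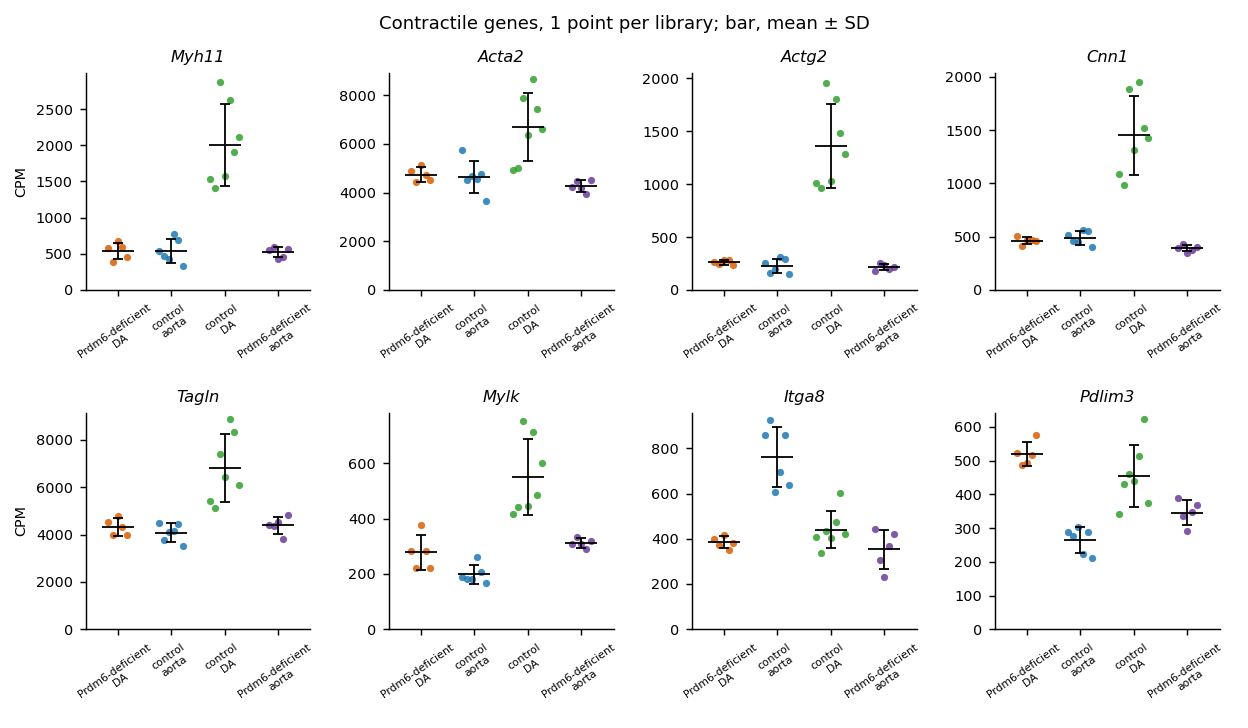
CPM (y axis, from 0) of 8 contractile genes in Prdm6-deficient DA (5 libraries), control aorta (6), control DA (7) and Prdm6-deficient aorta (5), 1 point per library with mean ± SD. For Myh11, Acta2, Cnn1 and Tagln the deficient DA sits at the level of the control aorta, whereas Itga8 is below it and Pdlim3 above it. Actg2 overlaps the control aorta, but its interval passed the bound.

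Of the 17 tested genes of Srf and its cofactors, 0 were called, 11 were within the bound and the median log2 difference was 0.12. Srf was at 59.6, 62.2, 67.8, 65.6 and 63.1 CPM against 58 to 82.3 CPM (median 68.7) in the aorta (interval -0.38 to 0.15). The LIM domain proteins Fhl1 and Csrp2 were within the bound at 0.19 and 0.12. Myocd, the myocardin gene, had values of 15.5, 13.1, 28.6, 15.2 and 20 CPM against 25.4 to 35.6 CPM (median 27.4), a log2 difference of -0.64 ± 0.18 with an adjusted p of 0.044. Replicate 5 lay inside the aortic range and the other 4 deficient libraries lay below it. Myocd was called in 1 of 24 alternative fits.

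Several regulators with unlike levels in control DA and aorta overlapped with the aorta in the deficient DA. Ptger4, the prostaglandin E receptor EP4 that keeps the fetal DA open, was at 19.6, 26.1, 13.2, 31.1 and 21.1 CPM against 22 to 55.9 CPM (median 26.1) in the aorta and 134 to 256 CPM (median 164) in the control DA. Its log2 difference from the aorta was -0.47 (interval -0.95 to 0.0037, adjusted p = 0.32), and the highest aortic value belonged to replicate 4. Tfap2b, a neural crest transcription factor of the DA, was at 3.18, 0, 2.38, 0.862 and 0.0491 CPM against 0.606 to 9.98 CPM (median 1.7) and 18.6 to 59.7 CPM (median 28.4) in the control DA. The interval against the aorta, -3.11 to 0.20, spans both likeness and a large decrease, since 2 deficient libraries were at or under 3 counts.

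Jag1, a Notch ligand, was at 229.7, 204, 201, 211 and 207 CPM against 199.7 to 269 CPM (median 206) in the aorta (interval -0.28 to 0.21), and its receptor Notch3 was at 279.9, 259, 346, 289 and 287 CPM against 276 to 329 CPM (median 291) (interval -0.29 to 0.23). Both were lower in the control DA than in the aorta, with log2 differences of -0.96 and -1.02 (adjusted p = 4.6e-07 and 4.5e-07). Hand2, a bHLH factor of the outflow tract, was at 31.1 ± 8.74 CPM (SD, n = 5) against 41.9 ± 10.4 (n = 6), neither called (adjusted p = 0.48) nor within the bound, beside 12 ± 6.05 CPM in the control DA (n = 7). Foxc1, a forkhead factor of outflow vessels, had a log2 difference of 0.34 (adjusted p = 0.048) and Twist1, a mesenchymal bHLH factor, of 0.51 (adjusted p = 0.019), with 3 of 24 alternative fits calling Twist1. Edn1, the vasoconstrictor endothelin-1, Gja5, a connexin, and Fbln1, a fibulin, differed by -0.14, 0.15 and 0.18 and were neither called nor within the bound. Ilk, integrin-linked kinase, lay within it at -0.07.

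The 5 genes with the largest control DA difference in each direction among those within the bound in the deficient DA are given as a description, since the rule uses these values. Higher in the control DA were Mgll, a monoacylglycerol lipase (0.09 in the deficient DA against 1.95 in the control DA), Myh11 (1.90 in the control DA), Tes, a focal adhesion protein (-0.04 against 1.71), Fgfr2, a fibroblast growth factor receptor (-0.15 against 1.63), and Cnn1 (1.57 in the control DA). Lower in the control DA were Hs6st2, a heparan sulfate sulfotransferase (0.07 against -1.36), Cped1 (0.03 against -1.03), Notch3, Fgf2, a fibroblast growth factor (-0.18 against -0.98), and Npr1, the receptor for atrial natriuretic peptide (-0.25 against -0.97). All values are log2 differences from the same control aorta libraries. The place within the bound was kept in 6 of 24 alternative fits for Tes, in 13 for Fgfr2, in 13 for Cped1, in 18 for Npr1 and in 18 for Fgf2, so those of Tes, Fgfr2 and Cped1 in particular are not firm, and in 22 or more for the others bar Myh11.

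Genes away from the aorta are grouped here by their values in the other vessels, a grouping made after the values were seen. A first group had its highest medians in the deficient and the control DA. Otogl (chr10:107760531-107912134), an otogelin-like secreted protein, was at 11.3, 17.5, 28, 15.9 and 20.7 CPM in the deficient DA and at 0 to 2.31 CPM (median 0.71) in the aorta, with no overlap (4.38 ± 0.46, adjusted p = 4.4e-07). The control DA held 14.3 to 21.4 CPM (median 15.1), and the Prdm6-deficient aorta 3.69 to 8.29 CPM (median 4.67). Gata4, a zinc finger factor of the heart and outflow tract, was at 9.79, 21.2, 11.1, 14.5 and 15.5 CPM against 0.815 to 3.28 CPM (median 1.7) (2.92 ± 0.54, adjusted p = 0.0011), beside a control DA range of 1.88 to 12 CPM (median 7.96) that was not called (1.80, adjusted p = 0.017). Otogl was called in the control DA (4.25, adjusted p = 1.3e-07) and in the deficient aorta (2.65, adjusted p = 2.8e-04). Every deficient DA library was above every aortic one for both genes, and the Otogl call held in 24 of 24 and the Gata4 call in 23 of 24 alternative fits. The direct difference between deficient DA and deficient aorta was not called for either gene (adjusted p = 0.051 and 0.04), but limma-voom called Otogl, with and without the embryo as a block (adjusted p = 0.0031 with it).

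Of the 16 tested Hox genes, which record position along the body axis, 3 were higher, 0 were lower and 0 were within the bound, with a median log2 difference of 0.48 and of 0.90 in the control DA. Hoxb4 was at 29.4, 23.4, 29.7, 23.3 and 26.6 CPM against 11.3 to 20 CPM (median 14.9), without overlap (0.77 ± 0.16, adjusted p = 0.0043). Hoxa5 was at 23.6, 24, 40.2, 24.4 and 17.3 CPM against 5.91 to 20 CPM (median 8.89) (1.26 ± 0.27, adjusted p = 0.0043), and Hoxa4 at 16.8, 10.3, 21.3, 22.8 and 11.6 CPM against 6.31 to 11.4 CPM (median 6.85) (1.09 ± 0.24, adjusted p = 0.0067). For both of these the lowest deficient library lay under the highest aortic one. Against the deficient aorta, Hoxb4 and Hoxa5 were called higher in the deficient DA, by 1.13 and 1.54 (adjusted p = 0.0011 and 0.0053). With limma-voom and the embryo as a block the Hoxa5 call was lost (adjusted p = 0.025).

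The Hox calls depended on single libraries and on the embryo series. With the series as a covariate 1 of the 3 was called, Hoxb4, and the adjusted p was 0.049 for Hoxa4 and 0.015 for Hoxa5, while in the second series alone 0 were called and 3 of the Hox genes were within the bound. The Hoxb4 call was lost without any one of Prdm6-deficient DA replicates 1, 5 and 7 and control aorta replicates 1, 2, 3 and 6 (adjusted p from 0.0102 to 0.017). The Hoxa5 call was lost without any one of Prdm6-deficient DA replicate 5 and control aorta replicates 1, 2, 3 and 6 (adjusted p from 0.013 to 0.025), and the Hoxa4 call without any one of Prdm6-deficient DA replicates 1, 5 and 6 and control aorta replicates 1, 2, 3, 5 and 6 (adjusted p from 0.0103 to 0.032). Hoxb5 was at 12, 6.08, 12.3, 8.45 and 0.147 CPM against 0.202 to 3.64 CPM (median 1.52) and was not called (2.11, adjusted p = 0.074), with replicate 7 far below the other 4 deficient libraries. The annotated antisense gene Hoxb5os overlaps Hoxb5, and whether reads were counted by strand is not stated.

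A further group was above the control aorta in both vessels of the deficient embryos. Ccdc3 (chr2:5137776-5230878), a secreted coiled-coil protein, was at 55, 50.5, 91.7, 47.1 and 38.1 CPM in the deficient DA and 0.616 to 6.29 CPM (median 1.94) in the control aorta (4.27 ± 0.40, adjusted p = 5.8e-08). The Prdm6-deficient aorta held 94.6 to 122 CPM (median 104) and the control DA 5.51 to 20.4 CPM (median 11.6). Col8a1, a short-chain collagen of vessel walls, was at 80.7, 24.9, 94.1, 54.3 and 33.6 CPM against 2.72 to 4.55 CPM (median 3.7) (3.95 ± 0.40, adjusted p = 2.3e-07), with 48.7 to 136 CPM (median 60.8) in the deficient aorta. Every deficient DA library lay above every control aorta library for both genes. The deficient aorta was itself called above the control aorta, at 5.17 and 4.38 (adjusted p = 2.5e-09 and 3.4e-08), and both genes were called higher in the control DA too, at 2.06 and 2.14. The deficient DA and the deficient aorta were not called different (adjusted p = 0.34 and 0.8). With limma-voom and the embryo as a block, that difference was called for Ccdc3 (adjusted p = 0.0025) and the control DA call of Col8a1 was lost (adjusted p = 0.1).

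Rergl (chr6:139492973-139501976), a small GTPase of the Ras family, was at 4.18, 7.44, 6.51, 5.58 and 4.42 CPM in the deficient DA. In the control aorta no library held more than 3 counts, so its level was at least 38.1-fold higher in the deficient DA against a floor of 3 counts per library (adjusted p = 1.7e-08). It was at 5.26 to 8.98 CPM (median 8.04) in the deficient aorta. Others among the 8 largest increases were Ptger3, Barx1 and Cilp. Barx1, a homeobox factor, differed by 3.66 ± 0.71 (adjusted p = 0.0019), and Cilp, a matrix protein of cartilage, by 3.76 ± 0.69 (adjusted p = 0.001), with calls in 20 and 21 of 24 alternative fits.

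Higd1a (chr9:121848563-121858362), a mitochondrial protein induced by low oxygen, was at 227, 158, 244, 167 and 166 CPM against 45.1 to 65.4 CPM (median 54.1) (1.84 ± 0.13, adjusted p = 6.9e-10), and at 222 to 294 CPM (median 251) in the deficient aorta. It was the only called member of 22 tested oxygen-sensing genes, of which 12 were within the bound, with a median of 0.03. Ldha and P4ha1, a glycolytic enzyme and a collagen hydroxylase that respond to oxygen, were within it at 0.09 and 0.20.

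**Figure D4:**
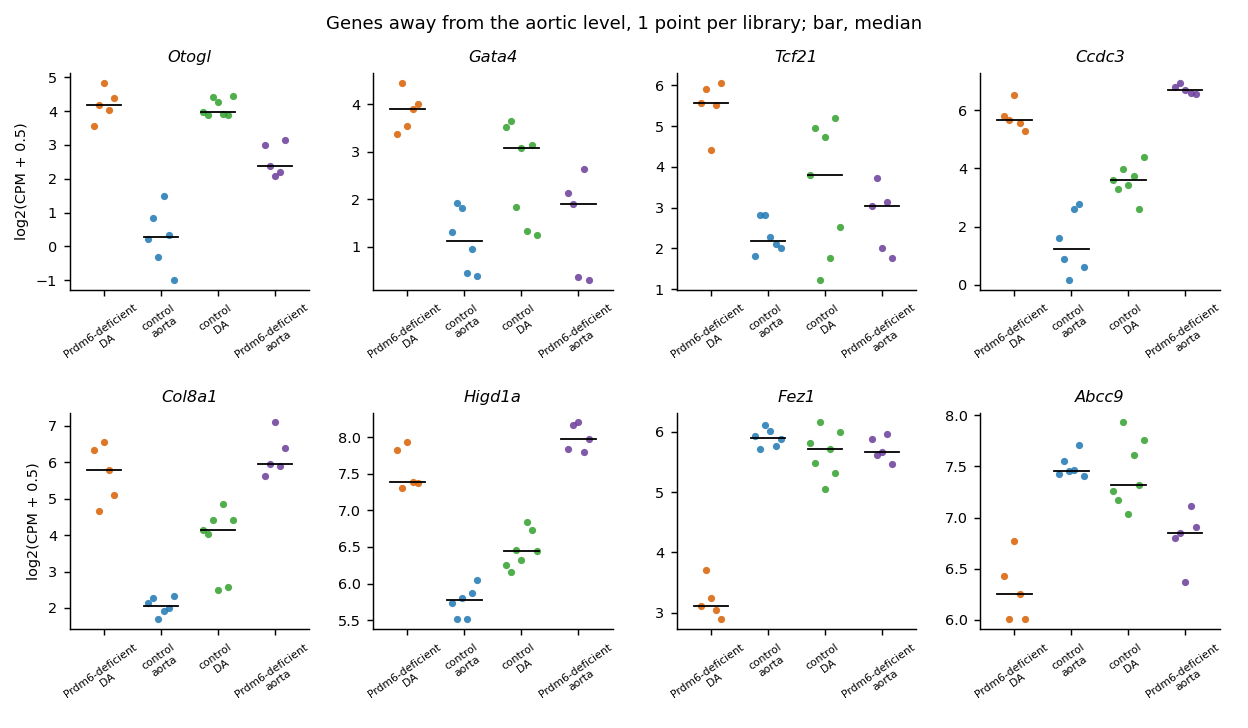
Log2(CPM + 0.5) (y axis) of 8 genes in 4 groups (x axis), 1 point per library with the median as a bar. Otogl, Gata4, Tcf21, Ccdc3, Col8a1 and Higd1a are above the control aorta in every Prdm6-deficient DA library, and Fez1 and Abcc9 are below it in every one.

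Another group was below the control aorta in the deficient DA. Fez1 (chr9:36821864-36878924), a protein of axonal transport, was at 8.17, 12.6, 8.93, 7.76 and 6.92 CPM against 52 to 68.3 CPM (median 59.3) in the aorta, with a log2 difference of -2.74 ± 0.18 (adjusted p = 1.2e-10). It was at 32.8 to 70.7 CPM (median 51.8) in the control DA and 43.9 to 61.9 CPM (median 50.1) in the deficient aorta, and every deficient DA library lay below every library of both. The direct difference from the deficient aorta was -2.56 (adjusted p = 8.3e-10). The test of the Prdm6 effect between vessels gave a difference of -2.34 on the log2 scale (adjusted p = 7.4e-07). The Fez1 call held in 24 of 24 alternative fits.

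Tbx15, a T-box factor of the trunk mesenchyme, was at 0.561, 2.1, 0.0458, 1.32 and 0 CPM against 5.45 to 7.39 CPM (median 6.39) (-3.00 ± 0.55, adjusted p = 9.3e-04), whereas the control DA held 15.8 to 43.2 CPM (median 21.5). Nell1, a secreted protein that binds heparin, was at 1.62, 0.511, 2.38, 2.01 and 0.0491 CPM against 2.83 to 12.3 CPM (median 4.78) (-2.22 ± 0.47, adjusted p = 0.0043) and 30.5 to 93.2 CPM (median 47.7) in the control DA. Both were thus higher in the control DA than in the aorta, with adjusted p = 0.0034 and 2.1e-06, and lower in the deficient DA. The Nell1 call was lost without any one of Prdm6-deficient DA replicates 1 and 2 and control aorta replicates 4 and 5 (adjusted p from 0.0101 to 0.016).

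Ky, a protein of the muscle Z-disc region, was at 2.56, 1.93, 0.733, 0.69 and 1.23 CPM against 9.39 to 29.2 CPM (median 13.7) (-3.52 ± 0.70, adjusted p = 0.0022), and its control DA range of 0 to 2.09 CPM (median 0.947) was also below the aorta. Its call was lost without Prdm6-deficient DA replicate 5 (adjusted p = 0.0101). Cdh8, a cadherin, differed by -3.29 ± 0.59 (adjusted p = 7.7e-04), Wnt10b, a Wnt ligand, by -2.80 ± 0.50 (adjusted p = 7.1e-04), and the long noncoding RNA 4833415N18Rik by -3.44 ± 0.60 (adjusted p = 6.2e-04). None of these was called between the deficient DA and the deficient aorta, at -0.91, -1.65 and 0.18 (adjusted p = 0.68, 0.14 and 0.97). In limma-voom the calls of Cdh8 and 4833415N18Rik against the control aorta were lost (adjusted p = 0.0149 for each). Akr1c18, a steroid reductase, had a difference of -3.74 ± 0.85 (adjusted p = 0.0082), and its call held in 7 of 24 alternative fits. It was lost without any one of Prdm6-deficient DA replicates 1, 2, 5, 6 and 7 and control aorta replicates 1, 2, 3, 4 and 6 (adjusted p from 0.012 to 0.028).

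Among 41 tested collagen chains, 4 were higher, 1 was lower and 9 were within the bound (median 0.21). Beside Col8a1, Col12a1, a fibril-associated collagen, was at 437, 284, 469, 321 and 277 CPM against 94.6 to 119 CPM (median 106) (1.76 ± 0.12, adjusted p = 4.6e-10). Col11a1, a fibrillar collagen of cartilage, was higher by 2.31 ± 0.31 and Col8a2 by 1.56 ± 0.22, with adjusted p = 1.6e-05 and 4.5e-05. Col12a1, Col11a1 and Col8a2 were not called against the deficient aorta (0.18, 0.23 and 0.84, adjusted p = 0.71, 0.9 and 0.088). In the control DA, Col12a1 and Col8a2 were called above the control aorta, at 0.62 and 2.44, and Col11a1 was not (0.13, adjusted p = 0.87). The main fibrillar chains Col1a1 and Col1a2 were within the bound, at -0.10 and -0.08. Summed markers of fibroblasts and adventitia were 2296 to 2657 CPM in the deficient DA against 1648 to 2091 CPM, but without the single marker Cd34 they were 866 to 1328 CPM against 1241 to 1589 CPM, lower in 3 of 5 deficient libraries than in any aortic one, and their part in the matrix differences was not tested.

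Of 22 tested elastic fibre genes, 2 were higher, 1 was lower and 11 were within the bound (median -0.15). Loxl1, a lysyl oxidase-like enzyme that cross-links elastin, was at 455, 506, 455, 493 and 514 CPM against 719 to 1035 CPM (median 838), without overlap (-0.80 ± 0.08, adjusted p = 3.3e-07). Its difference between the deficient DA and the deficient aorta was 0.03 and was not called (adjusted p = 0.96). Fbn2, fibrillin-2 of developing microfibrils, was at 279, 219.7, 318, 216 and 219 CPM against 99.2 to 150.1 CPM (median 115) (1.05 ± 0.12, adjusted p = 2.4e-06). It was also called higher in the control DA (1.28, adjusted p = 1.1e-08), and was not called between the deficient DA and the deficient aorta (-0.47, adjusted p = 0.086). Ltbp1, which holds latent TGF-beta in the matrix, rose by 0.58 ± 0.13 (adjusted p = 0.009), a call lost without any one of Prdm6-deficient DA replicates 1, 2, 5 and 6 and control aorta replicates 1, 2, 3, 5 and 6 (adjusted p from 0.011 to 0.04). Fbln5, fibulin-5, and Lox, lysyl oxidase, were within the bound at -0.06 and -0.22.

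Of 29 tested genes of the intimal cushion matrix, 4 were higher, 0 were lower and 10 were within the bound (median 0.18). Lum, the proteoglycan lumican, was at 511, 555, 431, 441 and 478 CPM against 118 to 208 CPM (median 173), without overlap (1.54 ± 0.21, adjusted p = 2.2e-05), and its control DA range was 109.9 to 312 CPM (median 143). Against the deficient aorta, Lum in the deficient DA was not called (-0.07, adjusted p = 0.97). Fmod, fibromodulin, and Thbs4, thrombospondin-4, were higher by 1.39 ± 0.25 and 2.18 ± 0.42 (adjusted p = 7.7e-04 and 0.0015). Thbs4 was nevertheless called lower in the deficient DA than in the deficient aorta (-2.21, adjusted p = 0.0069), and Fmod was not called there (0.81, adjusted p = 0.17). Mgp, an inhibitor of calcification, rose by 0.52 ± 0.11 (adjusted p = 0.0055), a call lost without any one of Prdm6-deficient DA replicates 1, 2, 5, 6 and 7 and control aorta replicates 2, 4, 5 and 6 (adjusted p from 0.01 to 0.02), by its size or its adjusted p. The abundant members Bgn and Itgb1 were within the bound at 0.17 and 0.19.

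Of 38 tested channels, stores and pumps, 3 were higher, 1 was lower and 11 were within the bound (median 0.10). Abcc9, the sulfonylurea receptor subunit of vascular KATP channels, was at 85.8, 63.7, 109, 75.6 and 63.7 CPM against 169 to 208 CPM (median 175) (-1.19 ± 0.15, adjusted p = 1.2e-05), with 131 to 244 CPM (median 159.6) in the control DA. Every deficient DA library lay below every library of the control aorta and of the control DA. The difference of Abcc9 between the deficient DA and the deficient aorta was not called (-0.51, adjusted p = 0.16). Kcna5, a voltage-gated potassium channel, was higher by 1.04 ± 0.20 (adjusted p = 0.0019) and Itpr1, the IP3 receptor of calcium stores, by 0.63 ± 0.11 (adjusted p = 7.7e-04). Neither was called between the deficient DA and the deficient aorta (-0.05 and 0.12, adjusted p = 0.98 and 0.83). Kcnmb1, the beta subunit of the large-conductance calcium-activated potassium channel, rose by 0.71 ± 0.16 (adjusted p = 0.0082), a call lost without any one of Prdm6-deficient DA replicates 1, 2, 5, 6 and 7 and control aorta replicates 1, 3, 4 and 6 (adjusted p from 0.013 to 0.032). The pump Atp2a2 and the T-type channel Cacna1g were within the bound at -0.10 and 0.18.

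Of 32 tested constrictor receptors and RhoA pathway genes, 2 were higher, 0 were lower and 14 were within the bound (median 0.0030). Rgs5, a brake on G protein signalling in pericytes and arterial muscle, was at 6694, 4016, 7265, 5093 and 3467 CPM against 1239 to 2616 CPM (median 1395), without overlap (1.71 ± 0.20, adjusted p = 2.3e-06), beside a control DA range of 5392 to 10611 CPM (median 7329.8). Between the deficient DA and the deficient aorta, Rgs5 was not called different (0.0046, adjusted p = 0.997). Rgs4 rose by 0.59 ± 0.12 (adjusted p = 0.0041), a call lost without any one of Prdm6-deficient DA replicates 1, 2 and 5 and control aorta replicates 2 and 4 (adjusted p from 0.012 to 0.018). Rhoa itself was within the bound at 0.08. Of 27 genes of nitric oxide, cGMP and cAMP relaxation, 0 were called and 11 were within the bound (median 0.04), among them Adcy5, an adenylyl cyclase, at -0.28 (kept in 13 of 24 alternative fits), and Prkar1a, a regulatory subunit of protein kinase A, at 0.04.

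Of 19 tested prostaglandin genes, 1 was higher, 1 was lower and 2 were within the bound (median -0.05). Ptger3 (chr3:157566892-157645888), the EP3 receptor, was at 18, 16.7, 36.1, 21.2 and 26.9 CPM against 0.808 to 2.97 CPM (median 1.87), without overlap (3.66 ± 0.47, adjusted p = 9.7e-06). Its control DA values were 0.106 to 5.41 CPM (median 4.58) and its deficient aorta values 7.19 to 13.3 CPM (median 8.27), both below every deficient DA library. The direct difference between deficient DA and deficient aorta was nevertheless not called for Ptger3 (1.32, adjusted p = 0.23). Pla2g4a, the phospholipase that frees arachidonic acid, was lower, at -0.64 ± 0.14 (adjusted p = 0.0048), a call lost without any one of Prdm6-deficient DA replicates 1, 5, 6 and 7 and control aorta replicates 2, 4 and 5 (adjusted p from 0.011 to 0.023). Ptges3 and Tbxa2r, a prostaglandin E synthase and the thromboxane receptor, were within the bound at 0.01 and -0.05.

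Of the 17 lists, the axon guidance list held the most called members by number, 7 higher and 2 lower of 50 tested, with 7 within the bound (median 0.20). That is 18% called, against 2.02% of all genes and 18.75% of the smaller Hox list. The median log2 difference of the list from the control aorta was 0.27 in the deficient aorta and 0.07 in the control DA. In the second embryo series alone, 2 of its members were called. Unc5b, a netrin receptor of vessels, was at 261, 196, 233, 241 and 214 CPM against 94.9 to 126 CPM (median 107), without overlap (1.06 ± 0.09, adjusted p = 4.8e-09). Slit2, a secreted repellent, was at 99.3, 50.8, 126, 65.1 and 53.6 CPM against 16.6 to 26.6 CPM (median 22.7) (1.81 ± 0.19, adjusted p = 4.1e-07), and the netrin Ntn4 was higher by 1.13 ± 0.22 (adjusted p = 0.0016). Unc5b, Slit2 and Ntn4 were not called between the deficient DA and the deficient aorta (-0.04, 0.25 and -0.27, adjusted p = 0.96, 0.77 and 0.78). Each was also called higher in the control DA than in the control aorta, at 0.82, 1.41 and 1.38. Sema3e, a semaphorin, rose by 3.45 ± 0.76 (adjusted p = 0.006), a call lost without any one of Prdm6-deficient DA replicates 1, 5 and 6 and control aorta replicates 1, 3, 4 and 6 (adjusted p from 0.013 to 0.019). Efnb2, an ephrin of arteries, and Slit3 were within the bound at 0.21 and -0.24, Slit3 in 19 of 24 alternative fits.

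Among 40 tested outflow tract transcription factors, 2 were higher, 0 were lower and 6 were within the bound (median 0.17). Beside Gata4, Tbx2, a T-box repressor of the outflow tract, was at 61.8, 60.4, 60.2, 52.8 and 30.2 CPM against 14.1 to 22.6 CPM (median 17), without overlap (1.59 ± 0.26, adjusted p = 3.2e-04), and at 53 to 76.3 CPM (median 63.2) in the deficient aorta. Gata6 and Prrx1 were within the bound at -0.09 and -0.10. Of 40 TGF-beta and BMP genes, 2 were higher, 0 were lower and 13 were within the bound (median 0.11). Bmp4, a BMP ligand, was at 191, 203, 231, 209 and 185 CPM against 86.2 to 130.3 CPM (median 97.3) (0.98 ± 0.14, adjusted p = 3.2e-05), and Id2, a target of BMP signalling, rose by 0.51 ± 0.10 (adjusted p = 0.002), a call lost without any one of Prdm6-deficient DA replicates 1 and 5 and control aorta replicates 1 and 6 (adjusted p from 0.0075 to 0.01), where its difference no longer passed 0.5 or its adjusted p reached the threshold. The receptor Bmpr1a and the ligand Bmp6 were within the bound at 0.08 and 0.01.

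In Notch signalling 0 of 22 and in retinoic acid signalling 0 of 18 tested genes were called, with 7 and 5 within the bound (medians 0.18 and 0.25). The retinoid receptors Rarg and Rxra were within it at -0.03 and 0.08. Of 33 tested cell cycle genes, 0 were higher, 2 were lower and 17 were within the bound (median -0.27). Ccne1, cyclin E1, was at 10.7, 7.55, 8.57, 5 and 6.58 CPM against 13.1 to 25.6 CPM (median 16.8), without overlap (-1.23 ± 0.22, adjusted p = 6.3e-04), and E2f1, a transcription factor of S phase entry, was lower, at -0.84 ± 0.16 (adjusted p = 0.0014), although its libraries overlapped. Mki67 and Pcna, which mark dividing cells, were within the bound at -0.24 and -0.20, Mki67 in 17 of 24 alternative fits.

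Abundance limits these counts, so they are given again for members whose average log2 CPM was 5 or more, where 80.6% of all genes were within the bound. That held for 9 of 11 Srf and cofactor genes, 5 of 6 retinoic acid genes and 14 of 20 constrictor genes. It held for 10 of 15 oxygen-sensing genes, 11 of 19 genes each of the nitric oxide and elastic fibre lists, 17 of 30 cell cycle genes and 9 of 16 channels. The share was lower for the cushion matrix, with 10 of 21, for TGF-beta and BMP, with 11 of 23, and for the collagens, with 9 of 21. Of the outflow tract factors 5 of 12 were within it, of the prostaglandin genes 2 of 5, of the Notch genes 4 of 11, of the axon guidance genes 6 of 20 and of the Hox genes 0 of 2. Except for the Srf and retinoic acid lists these shares are below that of all genes as abundant, and nothing particular to a list is read from them.

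**Figure D5:**
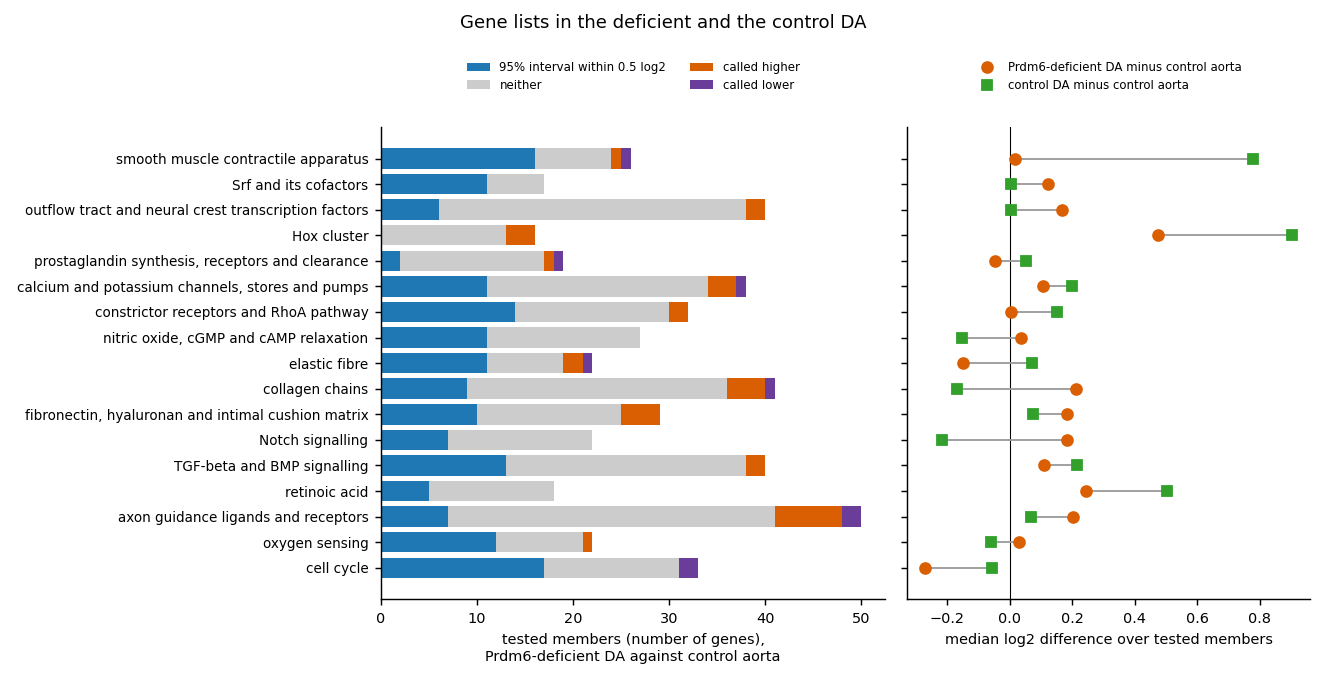
Left, number of tested members of 17 gene lists (x axis) that were within 0.5 log2 of the control aorta, called higher, called lower or neither in Prdm6-deficient DA. Right, the median log2 difference from control aorta in Prdm6-deficient DA (circles) and control DA (squares), which for the contractile list is 0.02 against 0.78.

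Over all genes, 870 (5.28%) had no overlap between the 5 deficient DA and the 6 control aorta libraries, among them 295 of the 332 called genes. In the contractile list 3 of 26 members had no overlap, in the collagen list 12 of 41 and in the axon guidance list 14 of 50.

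Markers of other cell types also differed between the groups. Summed fibroblast and adventitia markers were 2296 to 2657 CPM in the deficient DA and 1648 to 2091 CPM in the control aorta, without overlap, with 2 of 10 members higher and 0 lower and a median log2 difference of -0.18 over the list. Cd34, found on adventitial and endothelial cells, was at 1538, 1059.6, 1631, 1377 and 989 CPM against 406 to 519 CPM (median 479.8) (1.48 ± 0.12, adjusted p = 6.2e-09), and the higher sum rested on it. Without it the sums overlapped and ran lower in the deficient DA, as given beside the collagens. Cd34 was not called different between the deficient DA and the deficient aorta (0.13, adjusted p = 0.83). Tcf21, a factor of fibroblast precursors, was at 47.1, 59.9, 20.8, 45 and 66.1 CPM against 3.03 to 6.57 CPM (median 4.08) (3.37 ± 0.56, adjusted p = 3.3e-04). None of the 10 fibroblast markers was at or under 3 counts in every library of a group.

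Schwann cell and glial markers summed to 305 to 433 CPM against 261 to 313 CPM, with 2 higher and 0 lower of 14 tested, a median log2 difference of 1.65 and no overlap between the groups for 8 of the 14, where 5.28% of all genes had none. The 2 calls included Sox10, a glial transcription factor, which was higher by 2.18 ± 0.47 (adjusted p = 0.0051). The Sox10 call was lost without any one of Prdm6-deficient DA replicates 1, 5 and 7 and control aorta replicates 1, 3, 5 and 6 (adjusted p from 0.0105 to 0.023). With the embryo series as a covariate 0 of the 14 were called. Pmp22, the one member within the bound, was at -0.10. Endothelial markers summed to 1394 to 1940 CPM against 955 to 1564 CPM with 0 of 15 called, and Cdh5 was within the bound at 0.19, in 15 of 24 alternative fits. Cardiomyocyte markers summed to 106 to 740.2 CPM against 59.5 to 266 CPM, and 1 of 13 was called, Tnnc1, a troponin, at 1.76 ± 0.35 (adjusted p = 0.002), a call lost without Prdm6-deficient DA replicate 7 (adjusted p = 0.013).

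Melanocyte markers summed to 4.12 to 13.2 CPM in the deficient DA, where Dct, Tyrp1 and 5 others of 11 did not pass 3 counts in any library, against 7.54 to 23.3 CPM in the control aorta, where 3 did not, and 0 of 9 tested were called. Markers of macrophages and leukocytes, erythroid cells, mesothelium, brown fat, cartilage and autonomic neurons held 0 called genes of 14, 8, 7, 5, 7 and 9 tested, and their summed levels overlapped between the groups. Gap43 of neurons and Krt18 of mesothelium were within the bound at 0.0041 and 0.05, but in only 12 and 10 of 24 alternative fits. Their range was 184 to 397 CPM against 250.3 to 453 CPM for macrophages and leukocytes, 23.9 to 269 against 50.1 to 165 for mesothelium, 72.8 to 206 against 159 to 232 for brown fat, 235 to 318 against 250.5 to 366.5 for cartilage and 46.8 to 81.2 against 47.4 to 67.0 for autonomic neurons. The part of these cell types in the results above was not tested.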

How the data were processed

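Total RNA was isolated with a micro-column kit and sequenced as low-input paired-end RNA-Seq with the NEBNext Ultra II kit. The authors filtered reads to a quality of 20 over 90% of bases with the FASTX-Toolkit, removed artefacts with TagDust, aligned them to mm10 with STAR and quantified genes with RSEM, and the deposited values are expected counts per gene. Versions of STAR and RSEM are not given in the sources used here, nor is strand-specific counting stated. The deposited counts sum to 16945227 to 22610547 per library over the 11 libraries compared, and counts of 3 mark the lowest level read as present.

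Expected counts were rounded to whole numbers and fitted with edgeR 4.0.16 in R 4.3.3 (filterByExpr, TMM factors, quasi-likelihood test, 1 mean per vessel and genotype over 23 libraries). Genes were called at a Benjamini-Hochberg adjusted p under 0.01 and a log2 difference beyond 0.5, thresholds that the study's methods use. The 95% interval was the log2 difference ± a t quantile times its SE. Distances used log2 CPM with a prior count of 2 and an exact 2-sided sign-flip permutation test. Gene symbols and coordinates came from GENCODE M21 (mm10), which matched 54723 of 54752 identifiers, and promoters from RefSeq GRCm38.p6. The scripts were tested on simulated data.

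Genes were named by rule: 21 fixed genes, the 8 with the largest called difference each way among non-overlapping genes whose average log2 CPM was 1 or more, up to 4 called and 2 within-bound members of each of 28 gene lists, and the 5 largest control DA differences each way among genes within the bound. Of the genes this rule names, 2 are not reported here. The members, lists and rule were chosen with earlier results of these data known. Replicates of a group came from different embryos, but vessels of 1 embryo were often both sampled, and libraries were fitted as independent. Of 24 labelled samples, 23 had a column of counts, and 1 deficient DA sample was not analysed here. Alternatives covered normalization, filters, tests (limma 3.58.1 and DESeq2 1.42.0), embryo series, pooled libraries, Cre-carrying controls, a replicate block, each library left out in turn and, for vessels of the same embryo, limma-voom with the embryo as a random block.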

Additional observations from a re-analysis of the deposited data

Results flagged for a closer look

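Within a group, 24 of 244 groups of values held a library whose gap to the next one took an unusually large share of the group's range (Dixon's criterion). Chance gives about 1 in 20 such groups, and each value below is given with that of the next library. Control aorta replicate 1 stood apart for Cdh8 at 1.36 CPM (next library 2.73), Fgf2 at 62.8 CPM (next library 76.4), Jag1 at 269 CPM (next library 212) and the mesothelium and epicardium marker sum at 165 CPM (next library 88.1). Control aorta replicate 3 stood apart for Rergl at 0.0513 CPM (next library 0). Control aorta replicate 4 stood apart for Mgll at 41.3 CPM (next library 30.5), Ptger4 at 55.9 CPM (next library 32.2), Tes at 29.6 CPM (next library 16.1) and the melanocyte marker sum at 23.3 CPM (next library 10.9). Control aorta replicate 4 stood apart for the erythroid marker sum at 136615 CPM (next library 47096). Control aorta replicate 5 stood apart for Bmp6 at 172 CPM (next library 114) and Kcna5 at 40.8 CPM (next library 28.8). Control aorta replicate 6 stood apart for Ilk at 409 CPM (next library 445). Prdm6-deficient DA replicate 1 stood apart for the erythroid marker sum at 137751 CPM (next library 36179). Prdm6-deficient DA replicate 5 stood apart for Adcy5 at 426 CPM (next library 364), Cacna1g at 156 CPM (next library 115), Csrp2 at 961 CPM (next library 846) and Fbln1 at 122 CPM (next library 190.4). Prdm6-deficient DA replicate 5 stood apart for Lox at 1365 CPM (next library 1253) and Pcna at 196 CPM (next library 181). Prdm6-deficient DA replicate 6 stood apart for Bmp6 at 174 CPM (next library 111), Efnb2 at 322 CPM (next library 295) and Gja5 at 87.4 CPM (next library 52.3). Prdm6-deficient DA replicate 7 stood apart for Tbx2 at 30.2 CPM (next library 52.8).

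Among the 8 genes each way with the largest differences, the effect of Prdm6 deficiency differed between DA and aorta for 6, by the interaction term of the edgeR fit with Benjamini-Hochberg adjustment. The effect in DA minus that in aorta, on the log2 scale, was -2.96 (adjusted p = 4.7e-04) for Ccdc3, -2.56 (adjusted p = 0.0024) for Col8a1, -2.34 (adjusted p = 7.4e-07) for Fez1, -4.42 (adjusted p = 4.3e-05) for Nell1, -2.52 (adjusted p = 0.00961) for Otogl and -3.99 (adjusted p = 5.9e-04) for Tbx15. In limma-voom with the embryo as a block, the calls of Col8a1, Nell1 and Otogl were lost (adjusted p = 0.077, 0.0143 and 0.0143), as they were in limma-voom without it, and those of Ccdc3, Fez1 and Tbx15 were kept. The difference in Prdm6 effect uses the control DA and the deficient aorta as well, which the comparison of deficient DA with control aorta shares in part.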

How the results depend on the processing

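No called difference reversed its direction under any alternative, but differences that were not called did change sign, such as those of Myh11 (-0.41 to 0.14), Edn1 (-0.36 to 0.0080) and Gja5 (-0.06 to 0.31), and the median distance, smaller to the control than to the deficient aorta (0.964 against 0.978), was larger over genes whose log2 CPM was 3 or more (0.493 against 0.424). The 332 called genes (231 higher, 101 lower) became 744 (435 higher, 309 lower) at an adjusted p under 0.05 with no limit on the fold, 84 (61 higher, 23 lower) with the second embryo series alone, and 212 (149 higher, 63 lower) without the pooled libraries. DESeq2 called 468, of which 165 were lower. Genes within 0.5 log2 of the control aorta numbered 6387, and became 10432 with a bound of 1 log2 and 4156 with the second embryo series alone. Leaving out each library in turn gave 251 to 308 called genes, 162 to 215 higher and 77 to 98 lower, 5871 to 6126 within the bound, and 775 to 893 called in the control DA. Without Prdm6-deficient DA replicate 1 and control aorta replicate 4, an alternative chosen after seeing the data, 229 were called and 5773 lay within the bound. With limma-voom and the embryo as a block (consensus correlation 0.034), also chosen after seeing the data, 327 were called, 966 in the control DA. Among the reported calls of the deficient DA against the control aorta, that fit lost 4833415N18Rik, Cdh8, Tbx15, Barx1, Hoxa5, Kcnmb1 and Ltbp1 (adjusted p = 0.015, 0.015, 0.013, 0.014, 0.014, 0.013 and 0.012). It also lost Nell1, Thbs4, Hoxa4, Tnnc1 and Akr1c18 (adjusted p = 0.19, 0.036, 0.054, 0.023 and 0.020). With the embryo series as a covariate and all 23 libraries kept, 258 were called (170 higher, 88 lower) and 6012 lay within the bound. That fit lost 86 of the 332 calls although no library was left out. The fall in calls with fewer libraries comes with fewer samples in the fit, and other causes were not tested.

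With the replicate number as a replicate block, 271 genes were called and 5841 lay within the bound. The numbers mark different embryos, and the correlation of same-numbered libraries was -0.012 to 0.020 over 4 numbers, so they do not pair the samples. Of the 55 genes named by the rule that were called, 17 kept the call in all 24 alternative fits and 39 kept it without each single library, and 25 of the 46 so named within the bound stayed within it in all. Genes below a log2 CPM of 1 had a median SE of 1.12, against 0.0835 at 7 or more, so depth limits what can be said of low genes.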
